A study of Homo sapiens with 16 samples.

Results

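The 43 genes described here encode the machinery of ribosome biogenesis, including subunits of RNA polymerase I, and were found by their symbols among the 28277 symbols of each expression table. They were sorted into 4 steps: 9 genes of polymerase I and ribosomal DNA transcription, 11 of small subunit processing, 15 of large subunit processing and 8 of the small nucleolar ribonucleoproteins (snoRNPs). A few, such as NCL and NPM1, act at more than 1 step and were placed in 1. All 43 symbols were present in both tables, and all 43 had a mean high enough to be tested in both.

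Messenger RNA was sequenced from INA6 and JJN3, established cell lines grown from multiple myeloma, a cancer of plasma cells. In each line a catalytically dead Cas9 joined to a repressor domain had been directed either to KANSL2 (3 knockdown libraries) or to no human target (3 control libraries), which gives 12 RNA libraries in 4 groups. Cells of all groups carried this repressor system with a guide RNA and are labelled untreated. KANSL2 belongs to the NSL complex, a chromatin complex built around the histone H4 acetyltransferase KAT8. Guide sequences, the time between guide delivery and RNA extraction, and whether an arm is a clone or a pool are not stated in the labels. Nothing in the labels says that replicates came from separate cultures, so p-values reflect only how far these libraries differ from each other, and part of that may be technical. The comparison asks whether ribosome biogenesis genes change when KANSL2 is repressed, and whether they do so alike in the 2 lines.

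Ribosomes are assembled in the nucleolus. RNA polymerase I copies ribosomal DNA into a long precursor, snoRNPs modify that RNA at guided positions, and separate sets of assembly factors then cut and fold it into the small and the large subunit. Plasma cells, which secrete antibody in bulk, need many ribosomes, and the transcription factor MYC is known to drive many genes of this machinery in growing cells.

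Expression is given as rlog (regularised logarithm) values, a log2 scale on which counts are scaled by library and pulled towards each gene's mean. Differences are knockdown minus control. A rise means more of a transcript among all transcripts of the library, and neither a change shared by all RNA nor a shift in which cells make up the culture can be told apart from it. The target gene was lower in every knockdown library than in every control library of its line: KANSL2 was left at 76.4% of the control level in INA6 (limma adjusted p = 3.06e-05) and at 43.1% in JJN3 (limma adjusted p = 1.48e-16). All 9 plasma cell markers examined (SDC1, TNFRSF17, SLAMF7, IRF4, PRDM1, XBP1, JCHAIN, MZB1 and CD38) had mean values of at least 5.03 in INA6 and 7.59 in JJN3. Their direction differed by line: 6 fell and 2 rose in INA6, where their summed rlog value was 108.3 to 108.7 in the controls and 105.1 to 106.2 in the knockdown libraries, and 1 fell and 5 rose in JJN3, where it went from 99.7 to 100.3 up to 101.2 to 101.6. Of all genes tested, 24% fell and 24.7% rose in INA6, and 25.5% fell and 25.5% rose in JJN3. The part of the marker shifts in the results below was not tested. Of markers of other cell types, a mean of 3 was reached by 2 of 5 for B cells (PAX5 and BLK in INA6, MS4A1 and BLK in JJN3), by 2 of 5 for T and NK cells in INA6 (CD3E and NKG7) and 1 of 5 in JJN3 (CD3E), by 1 of 5 for myeloid cells in each line (CD14) and by 0 of 5 for stromal cells. The highest of these were PAX5 at 7.65 in INA6 and BLK at 7.38 in JJN3. None changed in INA6, and in JJN3 MS4A1 rose (group means 5.85 and 6.48) and CD3E fell (5.38 and 5.21). MS4A1, S100A8 and LUM were listed at 0 in INA6, and CD3D, LYZ, MPO, DCN and LUM in JJN3. Depth per library is unknown.

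In both lines nearly all of the 43 genes were higher after KANSL2 knockdown. In INA6 39 of the 43 genes rose and 0 fell, while 24.7% of all 12511 genes tested rose (limma, Benjamini-Hochberg adjusted p below 0.05). Their median difference was 0.35, that is 27.1% above the control level, beside 0.00094 for all genes tested. In JJN3 38 of the 43 rose and 0 fell, beside 25.5% of 12282 genes that rose. There the median was 0.30 (22.7% above control), beside 0.0010 for all genes. Every difference was positive in INA6, from 0.018 to 0.72, whereas 50.2% of all genes had a positive one. In JJN3 42 of 43 were positive, against 50.2% of all genes, the exception being UTP20 at -0.0018, whose sign flipped with median centring (0.025) and with quantile normalisation (0.057). The increases were modest in size and mostly of a similar size. A difference of at least 0.5 was reached by 3 genes in INA6 (PPAN, MRTO4 and RRP1), beside 1.09% of all genes, and by 1 in JJN3 (PPAN), beside 0.83%.

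Single libraries showed the same shift. Measured as the distance from the control mean of each gene, the median over the 43 genes was 0.30, 0.42 and 0.34 in the 3 INA6 knockdown libraries and lay between −0.011 and 0.0067 in the controls. In JJN3 it was 0.31, 0.29 and 0.29 in the knockdown libraries and between −0.015 and 0.028 in the controls. No knockdown library came near the controls by this measure. The control mean was taken from the same 3 control libraries, which holds their medians close to 0. The 3 knockdown values lay above all 3 control values for 40 of the 43 genes in INA6, beside 27.7% of all genes, and for 37 in JJN3, beside 28.4%. The lists were drawn up with earlier results of these data known, and no test was made over them.

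**Figure D1:**
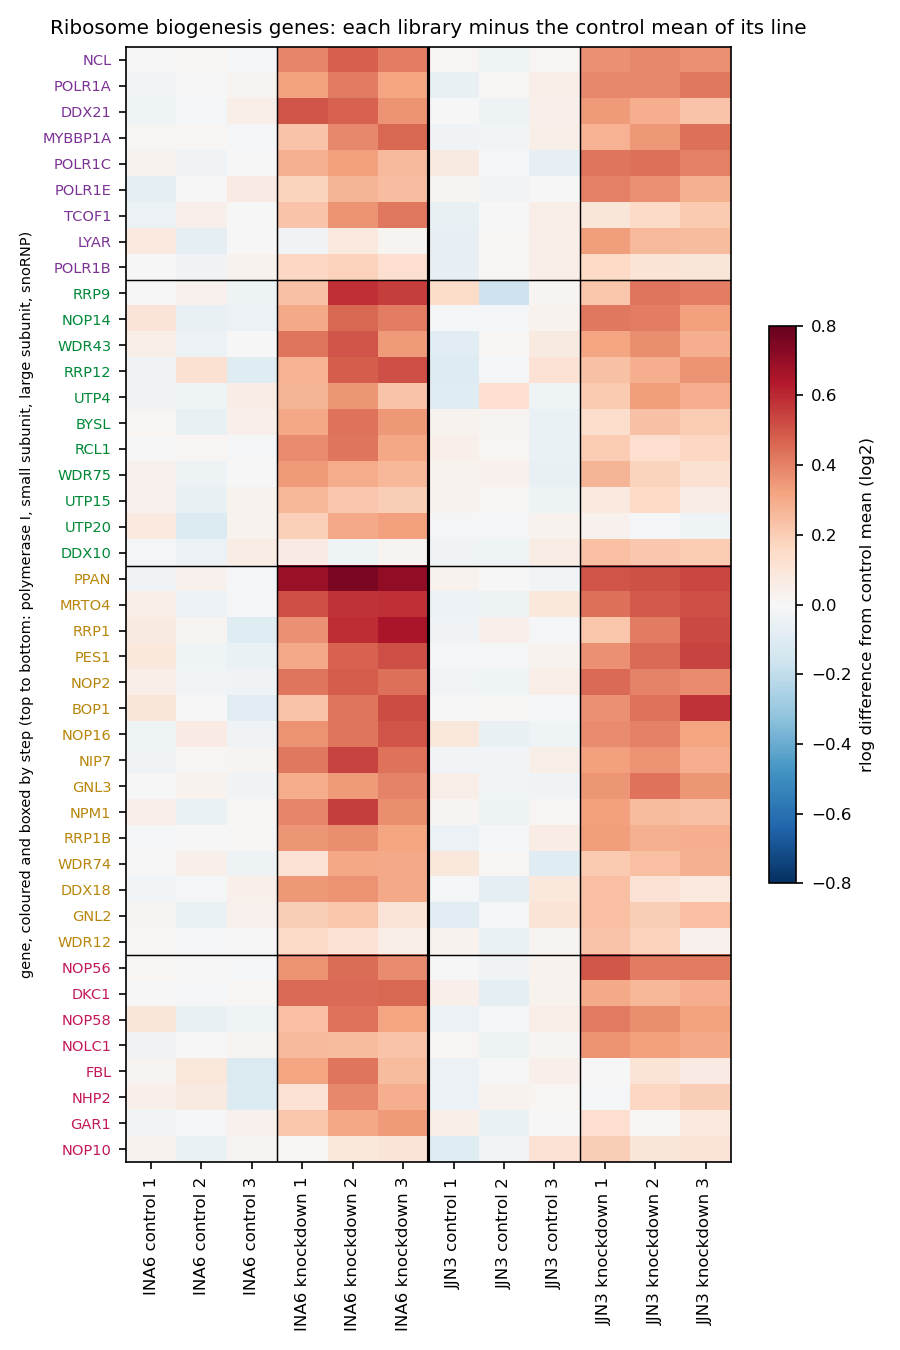
Heat map of the 43 genes (rows, boxed and coloured by step) in the 12 libraries (columns); colour gives the rlog value minus the control mean of the same line, on the log2 scale. The knockdown columns are red for nearly all rows in both lines, with LYAR, DDX10 and NOP10 pale in INA6 and UTP20, FBL and GAR1 pale in JJN3.

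MYC, the factor named above, was lower in both lines. Its values in INA6 were 14.28, 14.29 and 14.26 in the controls and 13.76, 13.72 and 13.78 in the knockdown libraries, a difference of -0.52 (limma adjusted p = 7.66e-10). JJN3 gave 14.75, 14.83 and 14.80 in the controls and 14.40, 14.39 and 14.38 in the knockdown libraries, a difference of -0.40 (adjusted p = 4.02e-10). The groups did not overlap in either line, so MYC fell where most of the 43 genes rose. Its part in their change was not tested.

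The genes were taken by symbol from a list, and whether that choice favours particular promoter motifs was not tested. RefSeq promoter windows (GRCh38.p14, from 250 bases before to 50 after the annotated start) were found for 35 of the 43 genes, all but POLR1E, TCOF1, RRP12, RRP1B, BOP1, DDX18, NOP58 and NOLC1. The E-box CACGTG, the palindromic sequence that MYC with MAX is known to bind, was present in 14 of the 35 (40%), in 31% of 100 windows of the other pathway genes, in 10.6% of 8742 windows of genes tested in both lines and in 7.43% of all 27305 windows. An E-box began within 50 bases of the start, a measure chosen after the positions were seen, in 14 of the 14 promoters with a box, in 22 of 31 for the other pathway genes and in 386 of 929 for genes tested in both lines. The box began before the start in RRP9, UTP4, UTP20 and NOP10. It began after the start in MYBBP1A, NOP14, RCL1, WDR43, BYSL, NOP2, GNL2, PES1, MRTO4 and FBL.

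Windows of 150 bases, from 120 before to 30 after the start, are shown for the E-box gene with the highest mean difference over the 2 lines in the small subunit, large subunit and snoRNP steps, and for PPAN, the highest of all, which has no E-box. FBL passed the test in INA6 only. Each reads 5′ to 3′ along the gene's strand, with the E-box in capitals. RRP9 lies at chr3:51941875-51942024, minus strand, MRTO4 at chr1:19251685-19251834, plus strand, FBL at chr19:39846350-39846499, minus strand and PPAN at chr19:10106103-10106252, plus strand.
RRP9: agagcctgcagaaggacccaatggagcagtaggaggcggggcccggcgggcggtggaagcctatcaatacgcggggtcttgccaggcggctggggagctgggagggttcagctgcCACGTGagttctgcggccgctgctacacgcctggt
MRTO4: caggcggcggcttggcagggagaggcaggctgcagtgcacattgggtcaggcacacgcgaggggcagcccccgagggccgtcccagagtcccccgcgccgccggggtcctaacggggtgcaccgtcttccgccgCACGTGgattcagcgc
FBL: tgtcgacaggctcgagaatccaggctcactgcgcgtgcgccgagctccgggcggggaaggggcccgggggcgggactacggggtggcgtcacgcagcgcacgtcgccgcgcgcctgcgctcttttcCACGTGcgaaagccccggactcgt
PPAN: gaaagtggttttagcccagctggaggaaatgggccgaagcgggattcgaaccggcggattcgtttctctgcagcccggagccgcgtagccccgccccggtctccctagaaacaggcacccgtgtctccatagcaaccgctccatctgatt
In RRP9 the box straddles the start, beginning 5 bases before it, and in MRTO4 and FBL its first base is base 15 and base 7 of the transcript.

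Genes with and without the box had similar medians. The 14 genes with the box had a median difference of 0.37 in INA6 and 0.30 in JJN3, and the 21 without it 0.34 and 0.29. The range was 0.067 to 0.56 with the box and 0.018 to 0.72 without it in INA6. Other motifs were searched on both strands in the same windows. The ETS motif CCGGAAG was in 31.4% of the windows of the 35 genes, in 46% for the other pathway genes and in 21.2% for genes tested in both lines. In the same order, the NRF1 motif GCGCATGC was in 8.57%, 8% and 6.04%, the YY1 motif AAGATGGCG in 5.71%, 7% and 4.52%, and CCAAT in 40%, 35% and 37.4%. A match of letters describes a sequence and does not show that a factor is bound.

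At the polymerase I step, 8 of 9 genes rose in INA6 (beside 24.7% of all genes) and 9 of 9 in JJN3 (beside 25.5%). The medians were 0.34 and 0.35. POLR1A, the largest catalytic subunit of polymerase I, rose by 27.7% in INA6 and 31.7% in JJN3 on the linear scale. The second largest subunit, POLR1B, was the least raised of the 4 subunits in both lines: in JJN3 its values were 9.93, 10.00 and 10.05 in the controls and 10.15, 10.10 and 10.10 in the knockdown libraries, a difference of 0.12 (SE 0.0436, limma adjusted p = 0.0204), and in INA6 the difference was 0.16. POLR1C, which polymerases I and III share, was at 8.14, 8.06 and 8.00 in the controls and 8.50, 8.51 and 8.47 in the knockdown libraries in JJN3. That difference of 0.42 (SE 0.0518, adjusted p = 6.83e-08) was the highest of the step there. In INA6 POLR1C rose by 0.29, and POLR1E, another polymerase I subunit, by 0.23 in INA6 and 0.35 in JJN3.

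Nucleolar factors that act with polymerase I moved with its subunits. NCL, the abundant nucleolar RNA-binding protein nucleolin, rose by 0.43 in INA6 and 0.37 in JJN3, and MYBBP1A, a nucleolar protein that binds the polymerase I machinery, by 0.36 and 0.36. The RNA helicase DDX21 had the highest difference of the step in INA6, with values of 12.28, 12.30 and 12.36 in the controls and 12.82, 12.79 and 12.67 in the knockdown libraries (difference 0.45, SE 0.0442, adjusted p = 6.96e-08). In JJN3 DDX21 was at 11.77, 11.74 and 11.82 in the controls and 12.12, 12.07 and 12.01 in the knockdown libraries (difference 0.29, adjusted p = 6.63e-07). TCOF1 encodes treacle, a scaffold for ribosomal DNA transcription. Its values in INA6 were 9.57, 9.66 and 9.62 in the controls and 9.85, 9.97 and 10.04 in the knockdown libraries (difference 0.34, adjusted p = 2.21e-05). JJN3 gave 9.64, 9.70 and 9.75 in the controls and 9.80, 9.85 and 9.91 in the knockdown libraries, a difference of 0.16 (adjusted p = 0.00494). Neither DDX21 nor TCOF1 had overlapping groups in either line.

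LYAR, a nucleolar zinc finger protein of ribosomal RNA processing, behaved differently in the 2 lines. Its INA6 values were 9.38, 9.22 and 9.30 in the controls and 9.27, 9.37 and 9.32 in the knockdown libraries, and the groups overlapped. The difference of 0.025 did not pass the test (95% interval -0.086 to 0.14, adjusted p = 0.725). In JJN3 the values were 7.46, 7.53 and 7.57 in the controls and 7.86, 7.78 and 7.77 in the knockdown libraries, with no overlap and a difference of 0.28 (SE 0.055, adjusted p = 8.55e-05). At this step the JJN3 calls of POLR1B (0.060, adjusted p = 0.264) and TCOF1 (0.093, 0.0916) were lost with quantile normalisation, with ranges of adjusted p over all alternatives of 0.00543 to 0.271 and 0.001 to 0.0916. POLR1B was also lost without knockdown replicate 1 (0.10, 0.0529), control replicate 1 (0.090, 0.144) or control replicate 2 (0.13, 0.0508).

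At the small subunit step, 10 of 11 genes rose in INA6 (beside 24.7% of all genes) and 9 of 11 in JJN3 (beside 25.5%). The medians were 0.36 and 0.22. RRP9, a protein specific to the U3 snoRNP that starts small subunit processing, had the highest difference of the step in INA6. Its values there were 6.08, 6.11 and 6.03 in the controls and 6.30, 6.66 and 6.62 in the knockdown libraries, a difference of 0.46 (SE 0.0776, limma adjusted p = 5.79e-05). JJN3 gave 6.33, 6.01 and 6.20 in the controls and 6.40, 6.61 and 6.59 in the knockdown libraries (difference 0.35, adjusted p = 6.71e-05). The difference of RRP9 had the highest SE of the 43 genes in both lines, and its groups did not overlap in either.

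NOP14, a scaffold of the small subunit processome, was the most raised of the step in JJN3, at 7.87, 7.88 and 7.92 in the controls and 8.31, 8.30 and 8.22 in the knockdown libraries (difference 0.39, SE 0.0519, adjusted p = 3.46e-07). In INA6 its values were 9.30, 9.13 and 9.15 in the controls and 9.50, 9.65 and 9.60 in the knockdown libraries, and its difference of 0.39 (adjusted p = 8.14e-06) was close to that in JJN3. WDR43 and WDR75, which belong with UTP4 and UTP15 to the subcomplex that joins the precursor first, rose by 0.42 and 0.30 in INA6 and by 0.33 and 0.19 in JJN3. UTP4 rose by 0.28 and 0.28. UTP15 rose by 0.23 in INA6 and was at 0.10 in JJN3, where it did not pass the test (95% interval -0.0098 to 0.21, adjusted p = 0.122, range over alternatives 0.0408 to 0.372). RRP12, an export and assembly factor, rose by 0.43 and 0.30, and BYSL, which acts late in small subunit maturation, by 0.36 and 0.19.

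Single genes of this step differed between the lines. UTP20, a very large scaffold of the processome, had INA6 values of 8.18, 7.99 and 8.13 in the controls and 8.29, 8.40 and 8.43 in the knockdown libraries, without overlap (difference 0.27, SE 0.0621, adjusted p = 0.00105). In JJN3 the 6 values were nearly equal, 7.13, 7.13 and 7.18 in the controls and 7.18, 7.14 and 7.11 in the knockdown libraries (95% interval of the difference -0.11 to 0.11, adjusted p = 0.98). The helicase gene DDX10 showed the opposite pattern. Its INA6 values were 9.82, 9.78 and 9.89 in the controls and 9.89, 9.79 and 9.85 in the knockdown libraries, which overlap (difference 0.018, 95% interval -0.083 to 0.12, adjusted p = 0.786), and this small difference turned negative with quantile normalisation (−0.031). In JJN3 DDX10 was at 9.45, 9.44 and 9.53 in the controls and 9.72, 9.69 and 9.68 in the knockdown libraries, with no overlap (difference 0.22, adjusted p = 0.00013). RCL1, a processome protein related to RNA cyclases, was at 8.19, 8.21 and 8.18 in the controls and 8.57, 8.62 and 8.51 in the knockdown libraries in INA6 (difference 0.37, adjusted p = 1.2e-05). In JJN3 it was at 8.07, 8.05 and 7.98 in the controls and 8.24, 8.17 and 8.20 in the knockdown libraries (difference 0.17, adjusted p = 0.0079), so that it rose in both lines.

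The large subunit step held the genes with the highest differences. There 14 of 15 genes rose in INA6 (beside 24.7% of all genes) and 15 of 15 in JJN3 (beside 25.5%). The medians were 0.43 and 0.37. PPAN, a homologue of fly Peter Pan required for large subunit maturation, led in both lines. Its INA6 values were 7.95, 8.01 and 7.97 in the controls and 8.67, 8.73 and 8.69 in the knockdown libraries, a difference of 0.72 (SE 0.0545, limma adjusted p = 1.71e-09), or 64.6% above control. In JJN3 they were 7.33, 7.30 and 7.29 in the controls and 7.81, 7.82 and 7.84 in the knockdown libraries, a difference of 0.52 (SE 0.0535, adjusted p = 3.52e-09), or 43% above control. The groups were far apart and the libraries within each lay close together. PPAN shares its span with the read-through gene PPAN-P2RY11 and with P2RY11, so part of its reads may be theirs. It had the rise of rank 24 of all genes tested in INA6 and of rank 87 in JJN3.

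MRTO4, which holds the place of the ribosomal stalk on the maturing large subunit, followed with 0.56 in INA6 and 0.48 in JJN3. The paralogs RRP1 and RRP1B both rose, RRP1 by 0.54 and 0.39 and RRP1B by 0.35 and 0.30. NOP2, a methyltransferase of ribosomal RNA, rose by 0.45 and 0.41, NIP7 by 0.47 and 0.33, and NOP16 by 0.43 and 0.37. The GTPase GNL3 (nucleostemin) rose by 0.34 and 0.38, its relative GNL2 by 0.17 and 0.22, and WDR74 by 0.24 and 0.24. In INA6 the GNL2 call was lost without knockdown replicate 2 (0.15, adjusted p = 0.0584) or control replicate 2 (0.15, 0.0623), in a range of 0.00245 to 0.0623.

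The PeBoW complex is made of PES1, BOP1 and WDR12. PES1 rose by 0.43 in INA6 and 0.45 in JJN3, and BOP1 by 0.39 and 0.46. WDR12 had lower values. Its INA6 values were 9.60, 9.59 and 9.60 in the controls and 9.75, 9.71 and 9.65 in the knockdown libraries, which do not overlap, with a difference of 0.11 that just missed the threshold (95% interval 0.011 to 0.21, adjusted p = 0.0616). It passed with median centring (0.15, adjusted p = 0.0146) and without knockdown replicate 3 (0.14, 0.0262), in a range of 0.0146 to 0.176. In JJN3 WDR12 was at 8.75, 8.67 and 8.74 in the controls and 8.94, 8.90 and 8.75 in the knockdown libraries (difference 0.15, 95% interval 0.044 to 0.26, adjusted p = 0.0168). That call was lost without knockdown replicate 1 (0.11, 0.0841), knockdown replicate 2 (0.13, 0.0803) or control replicate 2 (0.12, 0.0933). In both lines the interval of WDR12 lay wholly below those of PES1 (from 0.32 to 0.54 in INA6 and from 0.36 to 0.54 in JJN3) and BOP1 (from 0.26 to 0.52 and from 0.37 to 0.55). The difference between these genes was not itself tested.

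NPM1 and DDX18 were called as rising by more in INA6 in the test between lines described below. That call was kept in 9 of 20 alternatives for NPM1 and in 16 of 20 for DDX18. NPM1 encodes nucleophosmin, a nucleolar chaperone that aids export of the large subunit. Its values were 10.76, 10.66 and 10.73 in the controls and 11.11, 11.27 and 11.09 in the knockdown libraries in INA6 (difference 0.44, adjusted p = 4.11e-07). In JJN3 they were 10.50, 10.44 and 10.50 in the controls and 10.80, 10.73 and 10.71 in the knockdown libraries (difference 0.27, adjusted p = 3.09e-06). RefSeq names 50 NPM1 pseudogenes, so reads of NPM1 could be shared with near-identical copies and its level is uncertain. In all, 13 of the 43 genes have named pseudogenes, among them DDX18 with 6, and the same limit applies to them. The helicase gene DDX18 was at 10.48, 10.48 and 10.54 in the controls and 10.84, 10.85 and 10.80 in the knockdown libraries in INA6 (difference 0.33, adjusted p = 2.44e-06). In JJN3 it was at 10.17, 10.12 and 10.27 in the controls and 10.42, 10.30 and 10.26 in the knockdown libraries, where the lowest knockdown library overlaps the controls (difference 0.14, adjusted p = 0.0116). That JJN3 call was lost with quantile normalisation (0.076, 0.197), without knockdown replicate 1 (0.10, 0.0747) and without control replicate 2 (0.11, 0.102), in a range of 0.00309 to 0.197.

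**Figure D2:**
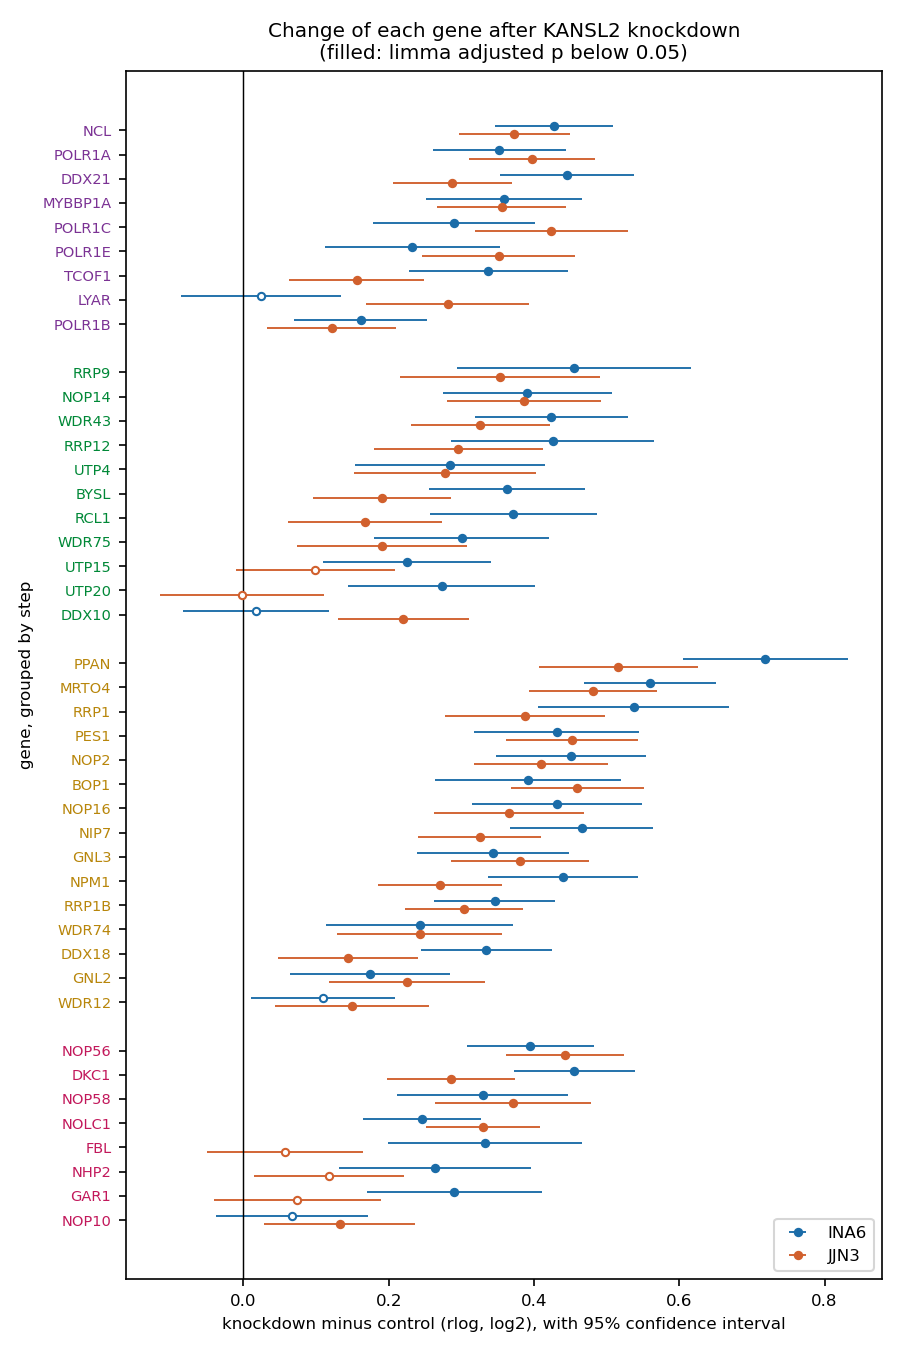
Difference between knockdown and control (rlog, log2 scale) for each of the 43 genes with its 95% confidence interval, INA6 in blue and JJN3 in orange, grouped by step; filled points passed the test. All points but UTP20 in JJN3 lie right of 0, PPAN lies farthest right in both lines, and the open points are LYAR, DDX10, WDR12 and NOP10 in INA6 and UTP15, UTP20, FBL, GAR1 and NHP2 in JJN3.

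Among the snoRNP genes, 7 of 8 rose in INA6 (beside 24.7% of all genes) and 5 of 8 in JJN3 (beside 25.5%). The medians were 0.31 and 0.21. Box C/D snoRNPs carry the methyltransferase FBL with the core proteins NOP56 and NOP58. NOP56 was the most raised of the step in JJN3, at 11.26, 11.23 and 11.29 in the controls and 11.76, 11.68 and 11.67 in the knockdown libraries (difference 0.44, SE 0.0398, limma adjusted p = 2.41e-10). In INA6 it was at 11.07, 11.05 and 11.04 in the controls and 11.41, 11.50 and 11.43 in the knockdown libraries (difference 0.40, adjusted p = 1.81e-07). NOP58 rose by 0.33 and 0.37. FBL itself rose in INA6, where its values were 7.98, 8.04 and 7.84 in the controls and 8.27, 8.38 and 8.21 in the knockdown libraries, without overlap (difference 0.33, adjusted p = 0.000223). In JJN3 the values of FBL were 8.03, 8.07 and 8.11 in the controls and 8.06, 8.18 and 8.14 in the knockdown libraries, which overlap (difference 0.057, 95% interval -0.05 to 0.16, adjusted p = 0.378), while both core partners rose there.

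Box H/ACA snoRNPs carry the pseudouridine synthase DKC1 (dyskerin) with GAR1, NHP2 and NOP10. DKC1 had the highest INA6 difference of the step, with values of 11.29, 11.27 and 11.29 in the controls and 11.74, 11.74 and 11.74 in the knockdown libraries (difference 0.46, SE 0.04, adjusted p = 1.37e-08). Its JJN3 values were 10.10, 9.99 and 10.09 in the controls and 10.37, 10.32 and 10.35 in the knockdown libraries (difference 0.29, adjusted p = 2.31e-06). The 3 small partners were raised less than DKC1 or did not pass. GAR1 was at 7.80, 7.81 and 7.86 in the controls and 8.05, 8.13 and 8.16 in the knockdown libraries in INA6 (difference 0.29, adjusted p = 0.000314). In JJN3 its values were 7.49, 7.38 and 7.44 in the controls and 7.57, 7.45 and 7.52 in the knockdown libraries, which overlap (difference 0.074, 95% interval -0.04 to 0.19, adjusted p = 0.278). NHP2 rose in INA6 (0.26, adjusted p = 0.00168) and was at 0.12 in JJN3 (95% interval 0.014 to 0.22, adjusted p = 0.0524). It passed there with median centring (0.14, adjusted p = 0.0182), with the replicate number as a block (0.0417) and without knockdown replicate 1 (0.18, 0.00154), in a range of 0.00154 to 0.227.

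NOP10, the smallest H/ACA protein, had the lowest difference of the step in INA6. There its values were 9.29, 9.21 and 9.29 in the controls and 9.28, 9.35 and 9.36 in the knockdown libraries, which overlap (difference 0.067, 95% interval -0.038 to 0.17, adjusted p = 0.284). In JJN3 its values were 9.01, 9.09 and 9.22 in the controls and 9.30, 9.20 and 9.21 in the knockdown libraries, which also overlap (difference 0.13, adjusted p = 0.0312). The JJN3 call of NOP10 was lost with quantile normalisation (0.11, 0.0786) and without knockdown replicate 1 (0.10, 0.108), control replicate 1 (0.085, 0.221) or control replicate 2 (0.12, 0.0993), in a range of 0.00485 to 0.221. NOLC1, the chaperone that gathers snoRNPs in the nucleolus, rose by 0.25 in INA6 and 0.33 in JJN3.

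**Figure D3:**
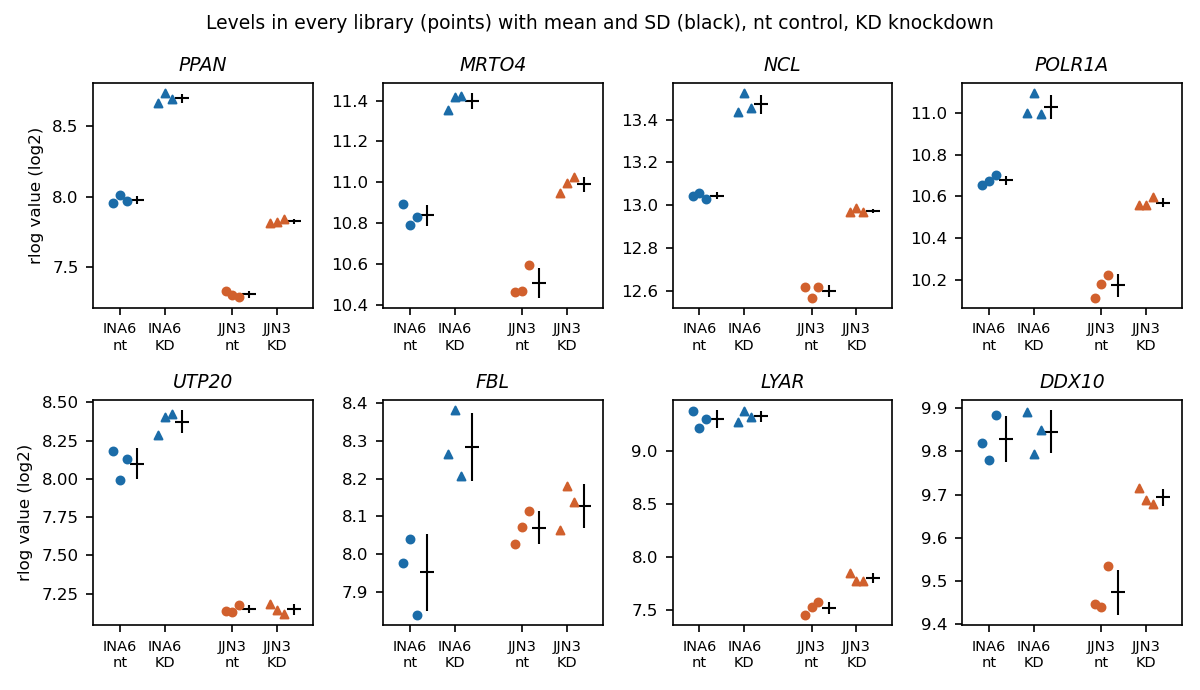
rlog values (log2 scale, y axis) of 8 genes in every library, with circles for controls (nt), triangles for knockdown libraries (KD), and black bars for mean and SD of 3; the 2 lines were normalised separately, so levels are compared within a line only. PPAN, MRTO4, NCL and POLR1A separate by arm in both lines, UTP20 and FBL in INA6 only, and LYAR and DDX10 in JJN3 only.

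The size of the rise was compared between the lines gene by gene, by the difference of the within-line differences with Benjamini-Hochberg adjustment over 11137 genes. Of the 43 genes, 12 differed, while 30% of all genes differed between lines, so the share was near that background. The difference was larger in INA6 for 28 of the 43, beside 6014 of all 11137 genes. 34 genes rose in both lines, where 14.2% of all genes did. Rises of 10 genes were larger in INA6 (15.6% of all genes had a larger difference there): TCOF1, DDX21, RCL1, UTP20, NPM1, PPAN, DDX18, FBL, DKC1 and GAR1. LYAR and DDX10 had the larger value in JJN3, as 14.4% of all genes did. UTP20 (0.27, SE 0.0831, adjusted p = 0.00918) and FBL (0.28, adjusted p = 0.00912) had the largest differences towards INA6, and LYAR (-0.26, adjusted p = 0.00806) the largest towards JJN3. All 10 genes of the first group but UTP20, FBL and GAR1 also rose in JJN3. Across the 43 genes the changes in the 2 lines had a Pearson r of 0.57, beside 0.49 over all 11137 genes, which describes genes that share the same libraries.

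Most of these differences between lines were sensitive to single libraries. Of the 12 calls, 3 remained without INA6 knockdown replicate 2 and 4 without JJN3 knockdown replicate 2. There were 6 left without INA6 control replicate 2, INA6 control replicate 3, JJN3 control replicate 1 or JJN3 control replicate 3, and 7 without INA6 control replicate 1. With the replicate number as a block 5 of the 12 remained (LYAR, UTP20, DDX10, DDX18 and FBL). Among the 12, LYAR alone was called in 20 of 20 alternatives, followed by UTP20 (19 of 20), FBL (18 of 20) and DDX10 (18 of 20). The target itself was lowered unevenly, to 76.4% in INA6 and 43.1% in JJN3, and that difference in dose cannot be told apart from the line. The test also treats the lines as independent, whereas same-numbered knockdown libraries of the 2 lines deviated together in 2 of 3 pairs (correlations over genes of 0.42, 0.054 and 0.45).

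**Figure D4:**
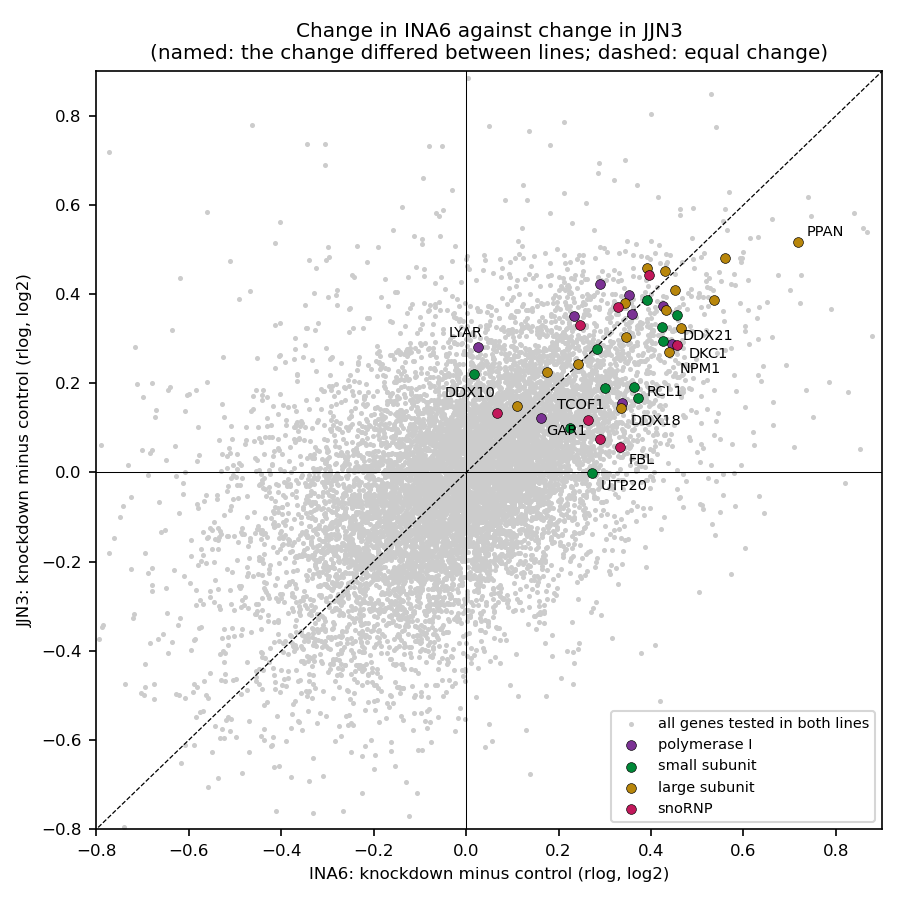
Knockdown minus control difference (rlog, log2 scale) in INA6 (x axis) and JJN3 (y axis) for all genes tested in both lines (grey) and the 43 genes, coloured by step; genes beyond the axis limits are not drawn. The coloured points lie in the upper right quadrant, except UTP20 at about 0 on the y axis, and the 12 named genes are those whose change differed between lines, with LYAR and DDX10 above the dashed line of equal change and the other 10 below it.

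Most of the wider pathway also rose, with medians below those of the 43 genes. A list of 114 other ribosome biogenesis genes was matched to the tables, 3 of them by an older symbol, and 108 were tested in each line. In INA6 76 rose, beside 24.7% of all genes, and 1 fell, with a median of 0.21. In JJN3 62 rose, beside 25.5% of all genes, and 5 fell, with a median of 0.15. In both lines 56 rose, beside 14.2% of all genes. The most raised in INA6 were CCDC86 (0.52), the small subunit genes NOL6 (0.50), DHX37 (0.50), a helicase that frees the U3 snoRNA, and TSR1 (0.47), and NOL9 (0.49), a kinase that acts on a spacer cut from the large subunit precursor. In JJN3 they were the helicase gene DDX56 (0.49), NOL6 (0.40), the methyltransferase FTSJ3 (0.40), NOC2L (0.40) and NOL9 (0.40). Every one of these named genes had a limma adjusted p of at most 1.2e-06 in its line.

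Genes that fell were few. In INA6 it was the large subunit factor TMA16 (-0.15, limma adjusted p = 0.0483), beside 24% of all genes, and this call was kept in 3 of 13 alternatives (adjusted p 0.0369 to 0.278). In JJN3 the small subunit genes FCF1 (-0.31), KRR1 (-0.22) and NGDN (-0.16), the large subunit gene NOP53 (-0.23) and the shared polymerase I and III subunit POLR1D (-0.10) fell, beside 25.5% of all genes, with adjusted p between 9.74e-06 and 0.0392. The call was kept in 13 of 13 alternatives for FCF1, KRR1 and NOP53, in 9 for NGDN (adjusted p 0.0119 to 0.188) and in 6 for POLR1D (0.000995 to 0.169). Other polymerase I genes, named here for their role after their values were seen, included factors of initiation. Of 10 tested polymerase I genes outside the 43, 4 rose in INA6 (40%, beside 24.7% of all genes) and 5 in JJN3 (50%, beside 25.5%), with medians of 0.080 and 0.13. With so few genes these counts are not read as a result about the group. The ribosomal DNA binding factor UBTF rose by 0.12 in INA6 and 0.21 in JJN3, the promoter selectivity subunits TAF1C by 0.19 and 0.25 and TAF1D by 0.28 and 0.24, and the polymerase subunit POLR1G by 0.36 and 0.21. The INA6 call of UBTF was kept in 5 of 13 alternatives (adjusted p 0.003 to 0.473). UBTF, TAF1C, TAF1D and POLR1G were the 4 that rose in INA6. There the promoter selectivity subunits TAF1A (-0.029) and TAF1B (-0.037) did not pass the test. Neither did the polymerase I genes POLR1D (-0.036), POLR1F (0.080) and TTF1 (0.022) in INA6. In JJN3 UBTF, TAF1C, TAF1D and POLR1G were among the 5 of 10 that rose, while POLR1D fell and 4 did not pass. RRN3, which recruits the polymerase, did not pass in either line, and its reads are uncertain because RefSeq names several pseudogenes of it. PWP2 was listed at 0 in both lines, and POLR1H, WDR46, AATF, DDX24 and ZNHIT3 lay below the minimum mean of 3. These are genes that growing cells use, so such low entries are not read as absence.

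**Figure D5:**
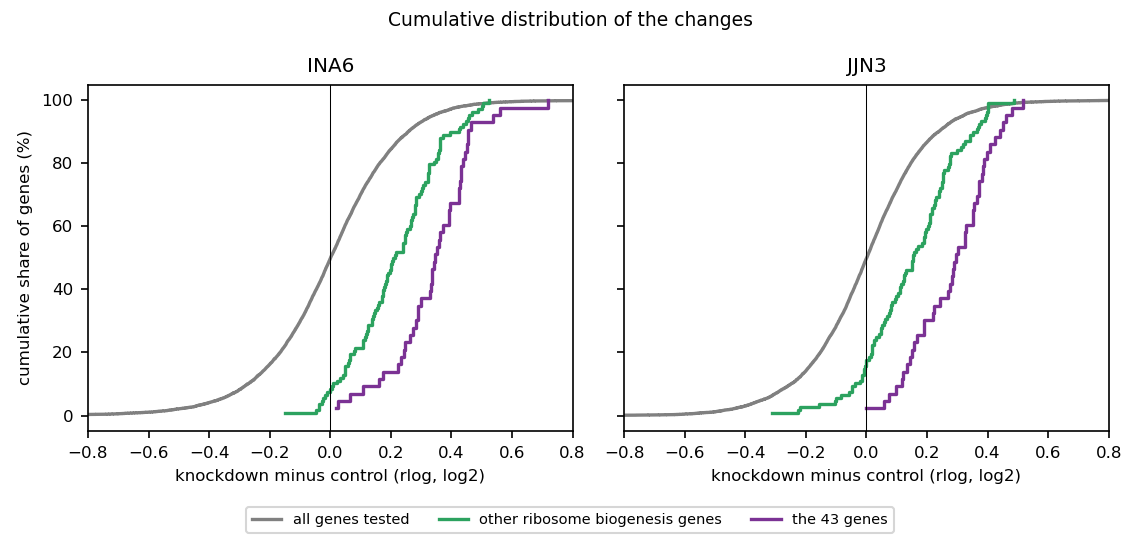
Cumulative share of genes (y axis, percent) by knockdown minus control difference (x axis, rlog, log2 scale) for all genes tested (grey), the other ribosome biogenesis genes (green) and the 43 genes (purple), INA6 left and JJN3 right. At the median both pathway curves lie right of the grey curve, with medians of 0.21 and 0.35 in INA6 and 0.15 and 0.30 in JJN3.

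The 43 genes lie on 19 chromosomes, so they do not share a locus. By RefSeq coordinates 8 of them hold small nucleolar RNA genes within their span, 25 in all, and these are NCL, WDR43, UTP20, PPAN, GNL3, NOP56, NOP58 and DKC1. The hosts GNL3 and NOP56 hold 5 each, among them SNORD19 and SNORD56. In 17 genes the span overlaps another annotated gene apart from these, and whether counting used strand is not stated in the labels, so such pairs are uncertain. Next to MYBBP1A the overlapping gene SPNS2 rose by 0.67 in INA6 and 0.44 in JJN3, and XPO5, which overlaps POLR1C, rose by 0.29 and 0.12. SCX, which overlaps BOP1, rose in JJN3 (0.25), where BOP1 rose too, and did not pass the test in INA6 (0.086). MED20, which overlaps BYSL, fell in JJN3 (-0.26), where BYSL rose. ARL10, which overlaps NOP16, fell in JJN3 (-0.47), where NOP16 rose. NOP14-AS1, which overlaps NOP14, and RMND5B, which overlaps NHP2, did not pass in either line. GLT8D1, which overlaps GNL3, was at 0.011 and −0.0044 and did not pass the test.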

How the data were processed

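RNA of 12 libraries (INA6 and JJN3, 3 knockdown and 3 control each) was used, and 4 JJN3 chromatin accessibility libraries were not analysed here. Sample titles gave the groups. The authors worked with Bowtie2, DESeq2, HTSeq, Trim Galore and build hg38, per the submitters' processing notes. Versions and annotation are not given in the sources used here. The authors deposited 1 table of rlog values per line, on the log2 scale and normalised within the line; depth is unknown.

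Genes with a mean of at least 3 were tested per line with limma 3.58.1 in R 4.3.3 (lmFit, then eBayes with trend; two-sided; Benjamini-Hochberg adjusted p below 0.05 over all genes tested), checked on simulated data. With 3 against 3 libraries an exact permutation test cannot go below 0.1, so none was used. Differences between lines were divided by their combined standard error (root of the summed squares), with the degrees of freedom added. The genes, lists and steps were chosen with earlier results of these data known. Values of every library are given for the most and least raised gene of each step and line and for each gene that differed between lines. Of other pathway genes, the 5 highest and lowest called per line are named. Alternatives were median centring, quantile normalisation, filters, no variance trend, a replicate block, removal of an expression trend, a joint fit of both lines and leaving out each library.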

Additional observations from a re-analysis of the deposited data

Results flagged for a closer look

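For 12 genes the change after KANSL2 knockdown differed between INA6 and JJN3 by the test of that difference itself. The threshold was an adjusted p below 0.05 over 11137 genes. By the same test 3342 of all 11137 genes (30%) differed, so the share among the genes described here was near that background. The 12 genes are listed by step, with values given as the INA6 change minus the JJN3 change on the log2 scale. At the polymerase I step these were TCOF1 (0.18, adjusted p = 0.0416), DDX21 (0.16, 0.0386) and LYAR (-0.26, 0.00806). At the small subunit step they were RCL1 (0.20, 0.0348), UTP20 (0.27, 0.00918) and DDX10 (-0.20, 0.0154). At the large subunit step NPM1 (0.17, 0.0424), PPAN (0.20, 0.0382) and DDX18 (0.19, 0.0192) differed. Among the snoRNP genes they were FBL (0.28, 0.00912), DKC1 (0.17, 0.0235) and GAR1 (0.22, 0.0366). Whether the replicate number pairs the samples is not stated in the labels. With that number as a block, LYAR, UTP20, DDX10, DDX18 and FBL were still called. TCOF1, DDX21, RCL1, NPM1, PPAN, DKC1 and GAR1 were not (adjusted p = 0.0532 to 0.0691). The calls were kept in 20 of 20 alternatives for LYAR and in 8 of 20 for TCOF1, which was lost most often, the range of its adjusted p being 0.00507 to 0.13.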

How the results depend on the processing

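The count of raised genes among the 43 was 38 to 40 for INA6 and 34 to 40 for JJN3 over 13 alternatives each, and 0 fell in any. Of the 39 INA6 calls 38, and of the 38 JJN3 calls 33, were kept under every alternative. The JJN3 median was 0.32 with median centring, 0.26 with quantile normalisation, 0.25 with the expression trend removed and 0.29 to 0.33 on leaving out each library. Sign changes occurred in 3 genes near 0. INA6 DDX10 was at −0.031 with quantile normalisation, −0.018 with the expression trend removed, −0.0058 without knockdown replicate 1 and −0.0064 without control replicate 2 (lowest and highest on leaving out each library −0.0064 and 0.046). INA6 LYAR was at −0.0017 without knockdown replicate 2 and −0.016 without control replicate 2 (−0.016 to 0.065). JJN3 UTP20 was at 0.025 with median centring, 0.057 with quantile normalisation, 0.053 with the expression trend removed, 0.00054 without knockdown replicate 2, 0.014 without knockdown replicate 3 and 0.012 without control replicate 3 (−0.020 to 0.014). With the expression trend removed POLR1B, TCOF1, DDX18 and NOP10 lost their JJN3 calls, and with no filter NOP10 did. The number of the 43 genes that differed between lines was 3 to 15 on leaving out each library. In the main setting it was 12, beside 30% of all genes. No share of all genes is given for the other settings, so their counts are not set against a background. With median centring all genes tested split into 3904 higher and 2400 lower in INA6, against 3084 and 3000, and into 3768 and 2571 in JJN3, against 3135 and 3129. For the other pathway genes, the count lower in INA6 was 0 with median centring, quantile normalisation, no filter, the replicate block or the expression trend removed and 0 to 1 on leaving out each library, and the count lower in JJN3 rose to 8 after quantile normalisation and after removal of the expression trend. Same-numbered control and knockdown libraries did not deviate together (correlations of −0.32 to −0.071 in INA6 and −0.022 to −0.0023 in JJN3). Such correlations do not show pairing by number and cannot exclude it. Between the lines, same-numbered knockdown libraries had correlations of 0.054 to 0.45. With the replicate block 5 genes differed between lines, and the raised counts were 39 and 39. Depth is unknown and rlog understates changes of weakly expressed genes.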
